A study of Mus musculus with 8 samples.

Results

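The immediate-early response genes are genes that cells switch on within minutes of a stimulus, before any new protein has to be made. The set described here holds 31 genes chosen by name, namely Fos, Fosb, Fosl2, Jun, Junb, Jund, Egr1, Egr2, Egr3, Ier2, Ier3, Ier5, Dusp1, Dusp2, Dusp5, Dusp6, Nr4a1, Nr4a2, Nr4a3, Atf3, Maff, Klf2, Klf4, Klf6, Btg1, Btg2, Zfp36, Zfp36l1, Myc, Rhob and Socs3. The set was chosen with earlier results of these data known, so a share of called members above that of all genes is not independent evidence. All 31 were found among the 24421 gene symbols of the deposited tables, and all 31 were among the 15917 genes that passed the filter on low counts. They were followed in mouse LT-HSCs, the long-term blood stem cells of the bone marrow, sorted as lineage-negative, CD117+ and Sca1+ cells with high CD150 and low CD48. A Vwf-GFP reporter divided these cells into a Vwf+ fraction, described as biased toward megakaryocytes, and a Vwf- fraction. The 4 groups were Vwf+ cells of Dnmt3a+/- mice, Vwf+ cells of wild-type (WT) mice, Vwf- cells of Dnmt3a+/- mice and Vwf- cells of WT mice. The mice were 10 to 12 months old and all carried the reporter used for the sort. Each group had 2 libraries, 1 from a female pool and 1 from a male pool of 3 to 4 mice, and total RNA was sequenced.

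In resting cells the products of many immediate-early genes are scarce, though this does not hold for every gene of the set. Growth factors, cytokines and stress activate the ERK, p38 and JNK kinases, which act on factors bound at the serum response element (the CArG box) and the cAMP response element (CRE) of the promoters. The Fos and Jun proteins pair to form the AP-1 factor, the Egr, Klf and Nr4a proteins are further transcription factors, and the Dusp, Zfp36, Btg and Socs3 proteins act back on the kinases or the messages and end the response. In mouse blood stem cells Egr1, Nr4a1 and Junb are known to restrain proliferation, and Myc is known to favour exit from the quiescent state. The same genes are also known to respond to tissue dissociation and cell sorting.

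The promoter windows of some of the members that the results turn on are shown first, because such promoters are where the response is known to be controlled. Each is the 250 bases before a RefSeq start on GRCm38.p6, read 5′ to 3′ on the strand of the gene. Capitals mark the CRE core TGACG on either strand, and the CRE octamer TGACGTCA where it is present. The octamer holds the core on both strands. The windows of Dusp6, Ier3, Rhob, Klf6 and Jund, which the results also name and which lack the core, are not printed. The windows printed therefore do not show how common the core is, and its share is given below.
Nr4a1, chr15:101266596-101266845, plus strand: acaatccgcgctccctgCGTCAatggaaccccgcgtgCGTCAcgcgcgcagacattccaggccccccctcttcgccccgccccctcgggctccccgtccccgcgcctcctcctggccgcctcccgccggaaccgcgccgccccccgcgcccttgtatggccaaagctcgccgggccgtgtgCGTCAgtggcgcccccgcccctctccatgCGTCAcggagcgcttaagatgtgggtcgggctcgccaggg
Btg2, chr1:134079156-134079405, minus strand: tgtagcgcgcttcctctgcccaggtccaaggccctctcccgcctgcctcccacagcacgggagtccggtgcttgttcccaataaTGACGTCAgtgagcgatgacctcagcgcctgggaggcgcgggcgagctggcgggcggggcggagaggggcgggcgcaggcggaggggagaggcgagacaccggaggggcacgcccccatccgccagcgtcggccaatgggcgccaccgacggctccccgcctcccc
Junb, chr8:84978749-84978998, minus strand: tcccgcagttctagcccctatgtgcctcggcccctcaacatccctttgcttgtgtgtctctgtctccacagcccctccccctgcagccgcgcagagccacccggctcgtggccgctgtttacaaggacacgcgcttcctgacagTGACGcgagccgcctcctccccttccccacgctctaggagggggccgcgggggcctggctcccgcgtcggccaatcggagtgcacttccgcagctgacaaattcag
Klf2, chr8:72318812-72319061, plus strand: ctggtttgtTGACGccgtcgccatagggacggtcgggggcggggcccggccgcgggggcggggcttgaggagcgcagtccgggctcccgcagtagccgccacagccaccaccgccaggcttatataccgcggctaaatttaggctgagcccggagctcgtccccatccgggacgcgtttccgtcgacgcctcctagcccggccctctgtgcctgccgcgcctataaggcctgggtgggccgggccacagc
Fos, chr12:85473640-85473889, plus strand: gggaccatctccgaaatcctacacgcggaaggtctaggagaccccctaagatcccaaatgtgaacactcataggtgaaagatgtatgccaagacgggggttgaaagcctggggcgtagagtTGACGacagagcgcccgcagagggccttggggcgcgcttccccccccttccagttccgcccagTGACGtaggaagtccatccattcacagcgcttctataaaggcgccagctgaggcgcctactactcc
Fosb, chr7:19310046-19310295, minus strand: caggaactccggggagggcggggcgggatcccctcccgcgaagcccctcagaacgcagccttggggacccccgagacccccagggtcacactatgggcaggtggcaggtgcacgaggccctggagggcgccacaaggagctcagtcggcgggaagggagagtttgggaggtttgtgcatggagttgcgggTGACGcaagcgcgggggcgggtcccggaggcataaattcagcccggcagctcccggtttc
Jun, chr4:95052223-95052472, minus strand: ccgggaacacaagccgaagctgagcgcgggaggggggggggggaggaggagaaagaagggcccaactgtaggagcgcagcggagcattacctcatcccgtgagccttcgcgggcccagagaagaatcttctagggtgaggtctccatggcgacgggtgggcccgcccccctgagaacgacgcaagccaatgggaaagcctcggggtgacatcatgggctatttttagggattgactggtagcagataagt
Maff, chr15:79347270-79347519, plus strand: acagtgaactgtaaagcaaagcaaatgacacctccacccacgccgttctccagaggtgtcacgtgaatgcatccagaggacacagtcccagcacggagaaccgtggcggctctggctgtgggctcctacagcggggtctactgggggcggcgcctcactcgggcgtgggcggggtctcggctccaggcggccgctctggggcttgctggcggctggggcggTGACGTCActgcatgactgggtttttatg

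Nr4a1 had 4 cores in this window, starting 233, 213, 69 and 40 bases before the start, and the windows of Nr4a2 and Nr4a3 also held 4 each. Fos had 2, starting 129 and 66 bases before the start, Fosb had 1 and Junb had 1. Btg2 and Maff held the full octamer, and the Jun window held none of these letters. A RefSeq window was at hand for 27 members, and not for Egr1, Egr3, Ier2 and Myc. Where a gene had several windows, a motif in any of them was counted. The core was present in 15 of the 27 (55.6%), against 28.5% of the 11795 tested genes with a window. The octamer was present in Btg2, Maff and Dusp1 (11.1%), against 2.9% of all. The CArG box was present in Egr2, Dusp5 and Zfp36 (11.1%), against 1.44% of all. All 250 bases of the Dusp5 and Zfp36 windows lay in annotated exons. Bases further upstream were not searched, so a gene without a match here can hold the motif elsewhere. The AP-1 site TGANTCA was present in Zfp36l1 (3.7%), against 5.8% of all, and the GC box GGGCGG in 85.2% of members, against 59.6% of all. Both strands were searched for these motifs, and such a match describes the letters only.

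The message of an immediate-early gene is usually short-lived, and an AU-rich nonamer in the 3′ untranslated region is a known mark of such messages. The nonamer TTATTTATT was present in Fos, Fosl2, Dusp1, Maff, Zfp36 and Zfp36l1, that is in 6 of 31 members (19.4%), against 7.91% of the 14113 coding genes tested that had such a region. Its first copy is shown in capitals with 10 bases on each side, on GRCm38 with the annotation of GENCODE M21.
Fos, chr12:85477103-85477131, plus strand: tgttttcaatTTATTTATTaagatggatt
Fosl2, chr5:32156871-32156899, plus strand: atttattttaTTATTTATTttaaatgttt
Dusp1, chr17:26506159-26506187, minus strand: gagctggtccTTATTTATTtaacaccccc
Maff, chr15:79358778-79358806, plus strand: ttccacactcTTATTTATTgcacgaatct
Zfp36, chr7:28376951-28376979, minus strand: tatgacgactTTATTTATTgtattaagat
Zfp36l1, chr12:80108167-80108195, minus strand: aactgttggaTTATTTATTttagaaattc

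The shorter pentamer ATTTA had a median of 2.53 copies per kb of 3′ untranslated region in the members and 1.25 in the tested coding genes. The genes themselves were compact. Their median span was 5162 bases, against 24468 bases for 14146 tested coding genes, and 6 of 31 (19.4%) had a single exon, against 2.43% of all.

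Total counts ran from 21809278 to 39402418 per library. Vwf, the gene of the reporter, was at 1034 to 1409 CPM (counts scaled to a common library total, after TMM scaling) in the 4 Vwf+ libraries, against 98.9 to 116 CPM in the 4 Vwf- libraries. Dnmt3a itself was at 279 and 179 CPM in female and male Vwf+ Dnmt3a+/- cells, against 203 and 175 CPM in Vwf+ WT cells. In Vwf- cells it was at 275 and 361 CPM in female and male Dnmt3a+/- cells, against 202 and 251 CPM in WT cells. It was thus not lower under the Dnmt3a+/- label (log2 change 0.38 ± 0.164 SE, edgeR adjusted p = 0.998). The altered allele is not described in the labels, so a count over the whole gene does not check the genotype, and the genotypes given here are those of the labels. Markers of LT-HSCs were abundant, with a summed level of 3392 to 3803 CPM over 12 genes in Vwf+ libraries and 3003 to 3361 CPM in Vwf- libraries. In each library 3 of 8 erythroid markers were at 0. The 8 summed to 18.4 to 29 CPM in Vwf+ libraries and 22 to 42.3 CPM in Vwf- libraries.

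Per length, Jun was the most abundant member at a mean of 972 TPM (the count scaled by transcript length and library total) over the 8 libraries, rank 112 of the 24421 genes. Egr1 (480 TPM), Ier2 (414 TPM), Jund (345 TPM) and Fos (268 TPM) came next. The libraries of these 4 overlapped, since Egr1 ran from 196 to 769 TPM and Fos from 108 to 428 TPM. Egr3 (3.75 TPM), Atf3 (3.06 TPM), Nr4a3 (0.889 TPM) and Egr2 (0.814 TPM) were the lowest. Together the 31 members took 0.401% and 0.632% of all counts in the female and male Vwf+ Dnmt3a+/- libraries and 0.414% and 0.647% in the Vwf+ WT libraries. In Vwf- cells they took 0.31% and 0.711% in the female and male Dnmt3a+/- libraries and 0.303% and 0.522% in the WT libraries. The 4 male libraries were all above the 4 female ones.

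**Figure D1:**
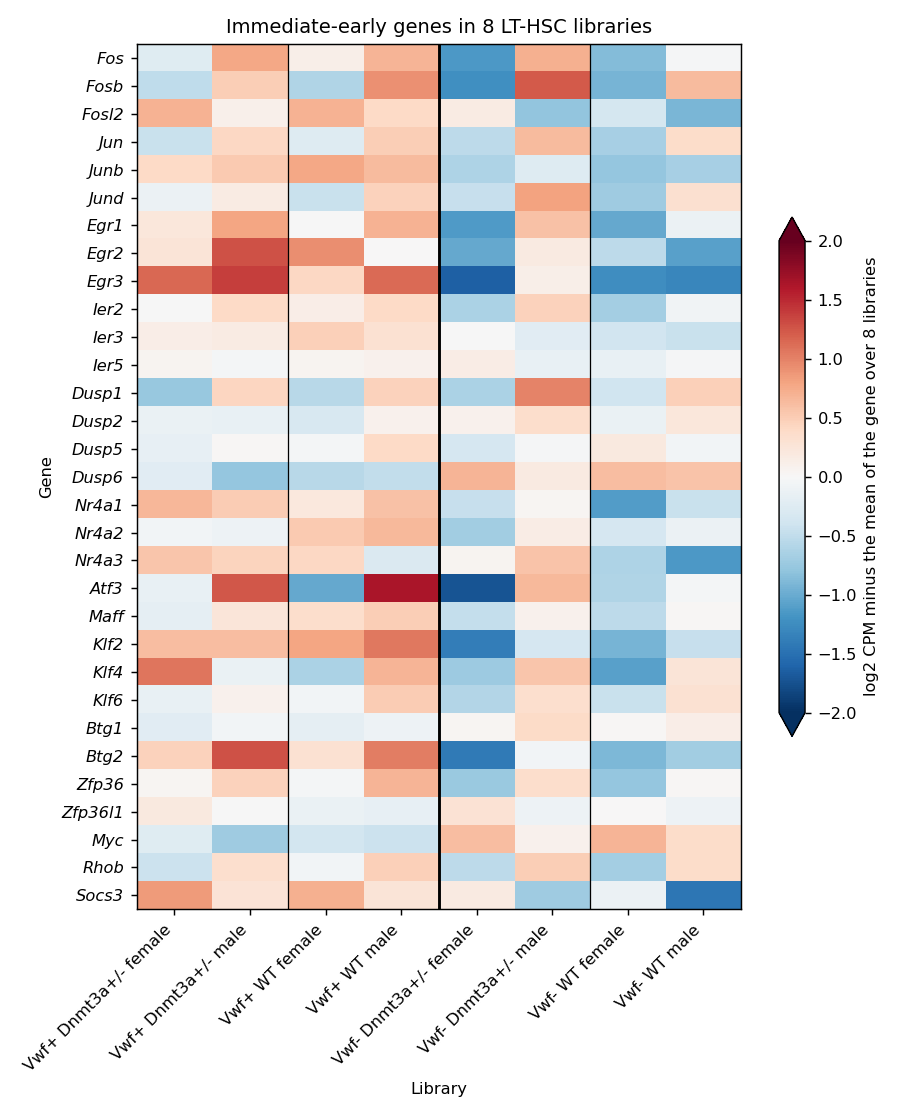
Level of the 31 members (rows) in the 8 libraries (columns), as log2 CPM minus the mean of the gene over all libraries. The thick line divides Vwf+ from Vwf- libraries. Egr3, Klf2 and Btg2 are higher left of it and Myc and Dusp6 lower, while Fosb, Dusp1 and Jun alternate between female and male columns.

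Vwf+ cells carried more message of 7 members than Vwf- cells and less of 2. Junb, Klf2, Nr4a1, Egr3, Btg2, Ier3 and Fosl2 were higher, by 1.45-fold for Ier3 to 3.88-fold for Egr3, and Dusp6 and Myc were lower, by 2.03-fold and 1.84-fold. With edgeR's quasi-likelihood test, averaged over genotype, these 9 of 31 passed an adjusted p of 0.05 (Benjamini-Hochberg over all genes tested), where 5.44% of all tested genes passed. By direction, 3.76% of all genes were called higher and 1.68% lower. The median log2 change of the members was 0.48, with 23 positive and 8 negative, and that of all tested genes was -0.01. The members' median moved with single libraries. It was 0.24 without the female Vwf- Dnmt3a+/- library, 0.31 without the male Vwf+ WT library (19 positive and 12 negative) and 0.31 without the female Vwf- WT library, 0.32 without the male Vwf+ Dnmt3a+/- library, and 0.72 without the male Vwf- Dnmt3a+/- library. In such bulk libraries more cells with a message and more message per cell cannot be told apart. Each p-value measures the spread between pools, and single mice were not resolved.

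Among the AP-1 genes, Junb, which pairs with Fos proteins and is a weaker activator than Jun, was at 201 and 221 CPM in female and male Vwf+ Dnmt3a+/- pools, and its Vwf+ WT pools had 262 and 238 CPM. In Vwf- cells Junb was at 99.3 and 128 CPM in the female and male Dnmt3a+/- pools and at 89.3 and 96.3 CPM in the WT pools. All 4 Vwf+ libraries were above all 4 Vwf- libraries. The log2 change was 1.16 ± 0.116 (SE, edgeR adjusted p = 0.000363). Junb overlaps Prdx2 on the opposite strand, and whether counting used strand is not given in the sources used here. Prdx2 itself had a log2 change of -0.07 ± 0.124 (edgeR adjusted p = 0.848).

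Fosl2, which encodes the Fos-related protein Fra-2, was at 65.0 and 42.8 CPM in female and male Vwf+ Dnmt3a+/- pools, and its Vwf+ WT pools had 64.5 and 52.6 CPM. In Vwf- cells Fosl2 was at 44.9 and 23.1 CPM in the female and male Dnmt3a+/- pools and at 31.2 and 21.2 CPM in the WT pools. The fractions overlapped, because the female Vwf- Dnmt3a+/- library was above the male Vwf+ Dnmt3a+/- library, but Vwf+ was higher in each of the 4 pairs of the same genotype and sex. This gave a log2 change of 0.91 ± 0.228 (SE, edgeR adjusted p = 0.0459), and it passed in 4 of the 8 fits that left out a library, with an adjusted p of up to 0.161 (without the female Vwf+ WT library).

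Of the zinc-finger factors, Egr3, a relative of Egr1 that binds the same GC-rich sites, was at 12.0 and 14.1 CPM in female and male Vwf+ Dnmt3a+/- pools, and its Vwf+ WT pools had 7.15 and 11.9 CPM. In Vwf- cells Egr3 was at 1.69 and 5.83 CPM in the female and male Dnmt3a+/- pools and at 2.22 and 2.12 CPM in the WT pools. The 2 fractions did not overlap. The log2 change of 1.96 ± 0.361 (SE, edgeR adjusted p = 0.0107) was the greatest among the 9 called members.

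Klf2, a factor that keeps T cells quiescent and answers to blood flow in endothelium, was at 36.1 and 36.4 CPM in female and male Vwf+ Dnmt3a+/- pools, and its Vwf+ WT pools had 41.0 and 49.4 CPM. In Vwf- cells Klf2 was at 9.04 and 18.8 CPM in the female and male Dnmt3a+/- pools and at 12.4 and 17.1 CPM in the WT pools. The lowest Vwf+ library was above the highest Vwf- library. The fitted log2 change was 1.498 ± 0.221 (SE, edgeR adjusted p = 0.00337).

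Nr4a1, an orphan nuclear receptor, was at 89.2 and 80.4 CPM in female and male Vwf+ Dnmt3a+/- pools, and its Vwf+ WT pools had 65.5 and 85.1 CPM. In Vwf- cells Nr4a1 was at 41.1 and 57.9 CPM in the female and male Dnmt3a+/- pools and at 26.0 and 41.3 CPM in the WT pools. Again no Vwf- library reached a Vwf+ library. On the log2 scale the change was 0.97 ± 0.173 (SE, edgeR adjusted p = 0.00918). Its relative Nr4a2 was at 27.2 and 26.5 CPM in female and male Vwf+ Dnmt3a+/- pools, and its Vwf+ WT pools had 40.8 and 44.7 CPM. In Vwf- cells Nr4a2 was at 17.5 and 31.3 CPM in the female and male Dnmt3a+/- pools and at 22.4 and 26.0 CPM in the WT pools, so that the fractions overlapped.

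Of the regulators of message and growth, Btg2, an antiproliferative protein that recruits the deadenylase complex to messages, was at 39.8 and 69.7 CPM in female and male Vwf+ Dnmt3a+/- pools, and its Vwf+ WT pools had 35.7 and 59.3 CPM. In Vwf- cells Btg2 was at 10.8 and 27.9 CPM in the female and male Dnmt3a+/- pools and at 15.5 and 17.9 CPM in the WT pools. The fractions did not overlap. The log2 change was 1.504 ± 0.3 (SE, edgeR adjusted p = 0.0163). Without the male Vwf+ WT library the adjusted p was 0.0528. Ier3, which modulates apoptosis and ERK signalling, was at 23.7 and 24.2 CPM in female and male Vwf+ Dnmt3a+/- pools, and its Vwf+ WT pools had 29.8 and 26.6 CPM. In Vwf- cells Ier3 was at 21.5 and 18.3 CPM in the female and male Dnmt3a+/- pools and at 16.4 and 15.8 CPM in the WT pools. The fractions lay close without overlapping. Its log2 change of 0.54 ± 0.133 (SE, edgeR adjusted p = 0.0449) passed in 1 of the 8 fits that left out a library, with an adjusted p of up to 0.174 (without the female Vwf- WT library).

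In 2 members the Vwf+ level was the lower one. Dusp6, the cytoplasmic phosphatase of ERK and a known readout of ERK activity, was at 32.4 and 22.3 CPM in female and male Vwf+ Dnmt3a+/- pools, and its Vwf+ WT pools had 25.8 and 27.1 CPM. In Vwf- cells Dusp6 was at 61.3 and 42.9 CPM in the female and male Dnmt3a+/- pools and at 58.6 and 56.6 CPM in the WT pools. The 2 fractions did not overlap, and the log2 change was -1.02 ± 0.159 (SE, edgeR adjusted p = 0.00429). Myc, the growth regulator, was at 194 and 140 CPM in female and male Vwf+ Dnmt3a+/- pools, and its Vwf+ WT pools had 177 and 170 CPM. In Vwf- cells Myc was at 350 and 244 CPM in the female and male Dnmt3a+/- pools and at 368 and 295 CPM in the WT pools. The highest Vwf+ library was below the lowest Vwf- library, with a log2 change of -0.88 ± 0.157 (SE, edgeR adjusted p = 0.00918).

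**Figure D2:**
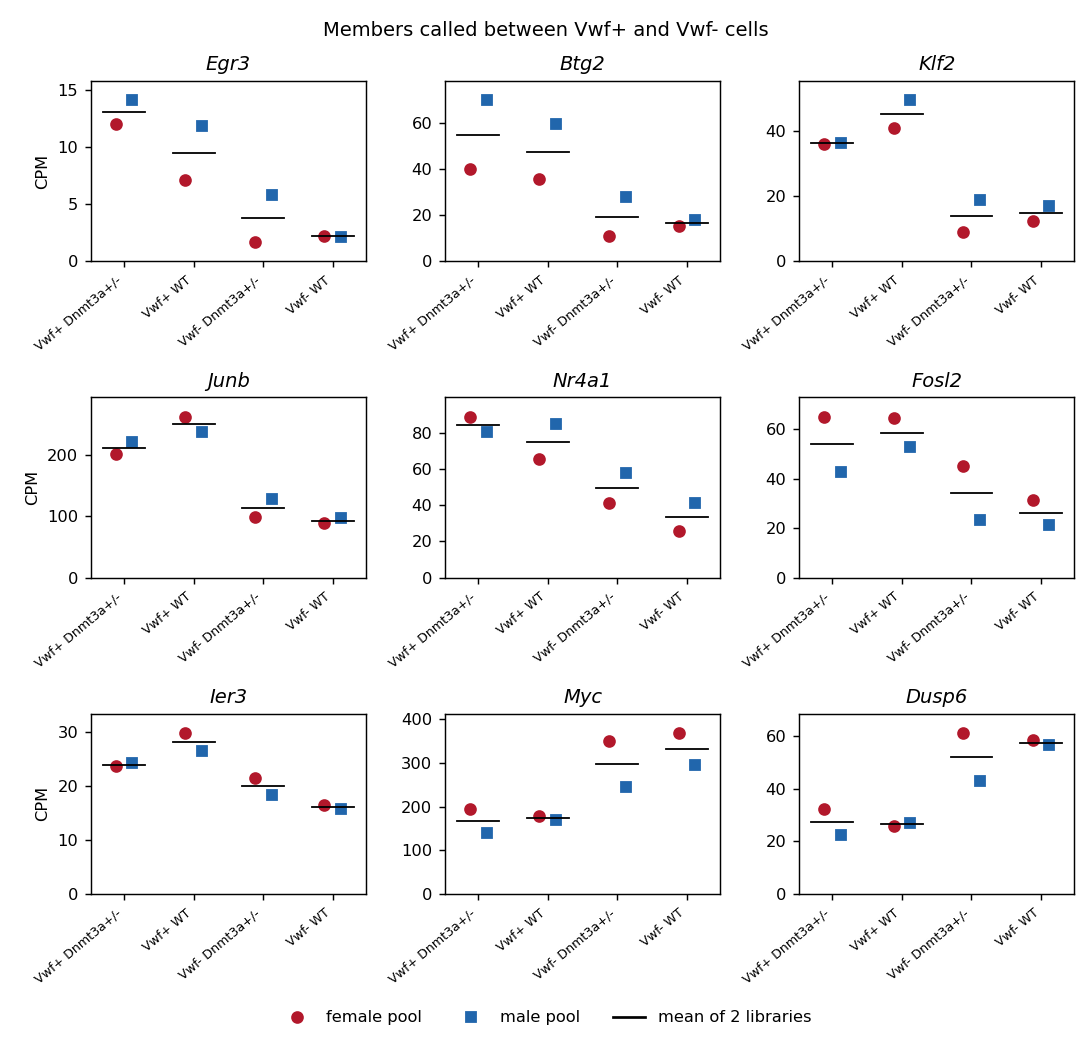
CPM (linear axis from 0) of the 9 members called between Vwf+ and Vwf- cells, in the 4 groups. Circles are female pools, squares male pools and lines the mean of 2 libraries. Junb, Klf2, Egr3, Btg2, Nr4a1 and Ier3 stand higher in both Vwf+ groups with no overlap, Fosl2 is higher with overlap, and Myc and Dusp6 are lower.

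Junb, Klf2, Egr3, Nr4a1, Dusp6 and Myc passed in each of the 8 fits that left out 1 library. By the plain order of libraries, 7 members had all 4 Vwf+ libraries above all 4 Vwf- libraries, where 7.71% of all genes did, and 3 had them below, where 5.32% did. The 7 were Junb, Egr3, Ier3, Nr4a1, Klf2, Btg2 and Socs3, and the 3 were Dusp6, Btg1 and Myc. Btg1, a relative of Btg2, was at 67.4 to 75.6 CPM in Vwf+ libraries and at 80.2 to 103 CPM in Vwf- libraries, a log2 change of -0.29 ± 0.110 that was not called (edgeR adjusted p = 0.199).

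The female and male pools of a group differed widely in several members, and this spread enters the error of the test above. With the replicate number, which is also the sex of the pool, as a block, 16 of 31 members passed (14 higher and 2 lower), where 13.4% of all genes passed, 7.42% higher and 5.97% lower. All 9 stayed and 7 joined, all higher in Vwf+ cells. Socs3, the inhibitor of cytokine receptor signalling, had a blocked log2 change of 1.03 ± 0.135 (edgeR adjusted p = 1.36e-05), and Egr1 had 0.84 ± 0.142 (edgeR adjusted p = 0.000244). The others were Fos (0.65), Zfp36 (0.57), Nr4a2 (0.50), Ier2 (0.46) and Maff (0.45). Jun (0.05 ± 0.325), Jund (-0.05 ± 0.312), Fosb (-0.05 ± 0.524), Rhob (0.12 ± 0.283), Klf6 (0.15 ± 0.228) and Dusp1 (-0.25 ± 0.383) were called between fractions in neither fit, on the log2 scale without the block.

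Within WT, Junb (1.43), Klf2 (1.62) and Nr4a1 (1.16) were called higher and Dusp6 (-1.12) lower on the log2 scale, where 1.97% of all genes were called, 1.48% higher and 0.496% lower. With the block 16 members were called (14 higher and 2 lower), where 8.35% of all genes were, 4.57% higher and 3.78% lower. Within Dnmt3a+/-, Junb alone was called, with a log2 change of 0.89 (edgeR adjusted p = 0.0364), where 1.06% of all genes were called, 0.892% higher and 0.17% lower. With the block 10 members were called there (8 higher and 2 lower), where 5.37% of all genes were, 3.52% higher and 1.85% lower. These counts moved with single libraries, and so did the counts over all genes. In WT, 1 member was called without either Vwf+ WT library or the female Vwf- WT library, 2 without the male Vwf- WT library and 10 without either Vwf- Dnmt3a+/- library, while 64 to 639 of all genes were called, against 314 with all libraries. In Dnmt3a+/-, 6 members were called without the male Vwf- Dnmt3a+/- library and 0 without any other 1 library, while 75 to 291 of all genes were called, against 169 with all libraries. Junb in Dnmt3a+/- thus passed in 1 of those 8 fits, with an adjusted p of up to 0.151 (without the male Vwf+ Dnmt3a+/- library). The interaction of genotype with fraction, which tests the difference between both, called 0 members and 0% of all genes. At an unadjusted p of 0.05 1 member passed it, Junb, where 0.999% of all genes did, and DESeq2 and limma called 0 members.

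Some genes used as markers of other cell types also differed between the fractions. Whether their messages came from other cells or from the sorted LT-HSCs was not tested. The 10 endothelial markers, all detected, summed to 376 to 387 CPM in Vwf+ libraries and 225 to 247 CPM in Vwf- libraries, and Cldn5, Ramp2, Kdr and Cdh5 among them were called higher. The 7 megakaryocyte markers summed to 242 to 391 CPM in Vwf+ libraries and 188 to 242 CPM in Vwf- libraries, with up to 1 at 0 in a library, and 2 of the 6 tested were called higher. The 11 monocyte and macrophage markers summed to 231 to 246 CPM in Vwf+ libraries and 163 to 217 CPM in Vwf- libraries, with 0 called. B cell markers, with 0 of 5 tested called, overlapped, at 12.8 to 19.0 CPM over 8 genes in Vwf+ libraries and 12.2 to 16.3 CPM in Vwf- libraries. T and NK cell markers summed to 10.4 to 15.3 CPM over 8 genes in Vwf+ libraries and 18.6 to 19.7 CPM in Vwf- libraries, and 1 of the 3 tested was called lower. Neutrophil markers (10 genes) and stromal markers (7 genes) overlapped between fractions, with 1 called higher in each. Of all tested genes, 3.76% were called higher in Vwf+ cells and 1.68% lower. The part of these markers in the change of the members was not tested.

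Other genes of the pathway were followed from lists chosen with earlier results of these data known. Among 44 tested other early-response genes, 6 were higher and 1 lower in Vwf+ cells, with a median log2 change of 0.46. For these lists, the shares of all tested genes are 3.76% called higher and 1.68% lower. The higher early-response genes included the stress-inducible Gadd45g (2.29 ± 0.245) and the C/EBP factors Cebpd (1.61 ± 0.228) and Cebpb (1.13 ± 0.110). The pseudokinase Trib1 (1.14 ± 0.216) and Nfkbia (0.56 ± 0.101), the inhibitor of NF-kappaB, were also among them. Rgs2, which dampens G protein signalling, was the lower one (-1.05 ± 0.174). With the block this list had 15 higher and 3 lower, where 7.42% of all genes were higher and 5.97% lower. Of 34 kinases and factors upstream of the response, 0 were higher and 1 was lower, Mkl1, a coactivator of the serum response factor (-0.60 ± 0.138). Of 16 ERK feedback regulators outside the set, 1 was higher, the phosphatase Dusp3 (1.11 ± 0.170).

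For the bZIP partners of Fos, Jun and Maf proteins, 0 of 15 passed in either direction, where 5.44% of all genes did. In the Myc network 1 of 10 passed, Mycn (1.13 ± 0.112), which was higher in the fraction where Myc was lower. None of 20 Myc-responsive ribosome biogenesis and growth genes passed (0 of 20, median log2 change -0.15, 2 positive and 18 negative). Among 12 cytokine feedback genes outside the set, Socs2 was higher (0.95 ± 0.162). Of 12 heat shock genes 0 passed.

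The sex of the pool, or the replicate number with which it coincides in the labels, went with a change in 16 members. Female pools had less Fos, Fosb, Jun, Jund, Egr1, Ier2, Dusp1, Atf3, Maff, Klf6, Btg2, Zfp36 and Rhob than male pools, and more Socs3, Fosl2 and Myc. These 16 of 31 members were called by edgeR with sex added to the 4 groups (3 higher and 13 lower), where 10.5% of all genes were called, 5.62% higher and 4.92% lower. The median log2 change of the members was -0.42, and that of all tested genes was -0.02. Female and male pools carry different replicate numbers in every group, so sex and any difference in the handling of replicates cannot be told apart. The labels do not say whether both fractions of a genotype and sex came from the same mice. The fit counts their libraries as independent, so its p-values are too small if they did.

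Fosb, an AP-1 subunit with low basal and high induced levels, was at 111, 104, 67.7 and 82.5 CPM in the female pools of Vwf+ Dnmt3a+/-, Vwf+ WT, Vwf- Dnmt3a+/- and Vwf- WT cells, against 221, 296, 370 and 244 CPM in the male pools of the same groups. Every female pool was below every male pool. This gave a log2 change of -1.62 ± 0.155 (SE, edgeR adjusted p = 2.51e-06). Fos was at 203, 261, 109 and 131 CPM in the female pools of these groups in the same order, against 413, 386, 392 and 237 CPM in the male pools. Female was lower in each group, but the female Vwf+ WT pool exceeded the male Vwf- WT pool. Its log2 change was -1.07 ± 0.145 (SE, edgeR adjusted p = 0.000119).

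Jun, the main partner of Fos, was at 1016, 1163, 966 and 873 CPM in the 4 female pools in that order of groups, against 1848, 1963, 2156 and 1787 CPM in the male pools. The sexes did not overlap, and the log2 change was -0.95 ± 0.110 (SE, edgeR adjusted p = 2.85e-05). Jund was at 407, 328, 322 and 270 CPM in the female pools, against 496, 609, 778 and 554 CPM in the male pools, again without overlap, with a log2 change of -0.87 ± 0.128 (edgeR adjusted p = 0.000264). Junb, the member with the smallest adjusted p between fractions, had a log2 change of -0.12 ± 0.0999 between sexes and was not called (edgeR adjusted p = 0.498).

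Egr1 was at 740, 629, 288 and 309 CPM in the 4 female pools, against 1088, 1025, 944 and 580 CPM in the male pools. Its pools were ordered by sex within each group, and the 2 female Vwf- pools were the lowest of all. The fitted log2 change was -0.97 ± 0.143 (SE, edgeR adjusted p = 0.000291). Atf3, a stress-induced bZIP factor of low level, was at 1.96, 1.03, 0.607 and 1.41 CPM in the female pools, against 5.22, 6.93, 3.46 and 2.12 CPM in the male pools. It did not overlap, and its log2 change of -1.80 ± 0.408 (SE, edgeR adjusted p = 0.00796) was the greatest in size among the 16 called members. Maff, a small Maf protein, was at 21.6, 31.2, 17.5 and 17.0 CPM in the female pools, against 29.1, 34.5, 26.0 and 24.8 CPM in the male pools, with overlap and a log2 change of -0.42 ± 0.121 (edgeR adjusted p = 0.0299).

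The phosphatase Dusp1, which removes phosphate from p38 and JNK in the nucleus, was at 76.9, 89.1, 84.1 and 98.9 CPM in the female pools, against 176, 179, 260 and 181 CPM in the male pools. The sexes were well apart in each fraction and genotype, and the log2 change was -1.17 ± 0.113 (SE, edgeR adjusted p = 2.74e-06). Dusp1 overlaps Ergic1 on the opposite strand, which had a log2 change of 0.33 ± 0.113 that was not called (edgeR adjusted p = 0.073). Zfp36, or tristetraprolin, binds AU-rich elements such as those shown above and speeds the decay of the message. It was at 167, 157, 96.6 and 94.6 CPM in the female pools, against 221, 257, 205 and 164 CPM in the male pools. The log2 change of Zfp36 was -0.75 ± 0.107 (SE, edgeR adjusted p = 0.000206). The female Vwf+ Dnmt3a+/- pool was slightly above the male Vwf- WT pool.

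Rhob, a small GTPase of the endosome, was at 83.4, 109, 79.0 and 70.6 CPM in the female pools, against 143, 158, 158 and 146 CPM in the male pools. Rhob did not overlap and changed by -0.84 ± 0.103 (edgeR adjusted p = 5.36e-05). Klf6, a zinc-finger factor, was at 80.8, 86.0, 59.4 and 65.7 CPM in the female pools, against 94.9, 128, 113 and 111 CPM in the male pools, also without overlap, with a log2 change of -0.62 ± 0.109 (edgeR adjusted p = 0.00117). Ier2, a nuclear protein named for its immediate-early response, was at 286, 317, 187 and 181 CPM in the female pools, against 382, 380, 396 and 274 CPM in the male pools. Ier2 overlapped between sexes, and its log2 change was -0.59 ± 0.117 (edgeR adjusted p = 0.00335). Btg2, whose levels are given above, changed by -0.78 ± 0.140 (edgeR adjusted p = 0.00141).

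Socs3 went the other way, at 45.9, 41.6, 28.8 and 23.4 CPM in the female pools, against 30.6, 30.1, 15.4 and 9.23 CPM in the male pools. Its female pool was higher in each group, by 0.81 ± 0.135 on the log2 scale (edgeR adjusted p = 0.000763), and Vwf+ pools were above all Vwf- pools. Fosl2 was also higher in female pools (log2 change 0.60 ± 0.112, edgeR adjusted p = 0.00197). Fosl2 and Socs3 were higher both in Vwf+ cells with the block and in female pools, whereas Btg2 was higher in Vwf+ cells and lower in female pools. Myc was higher in female pools by 0.34 ± 0.101 (edgeR adjusted p = 0.0335) and lower in Vwf+ cells.

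**Figure D3:**
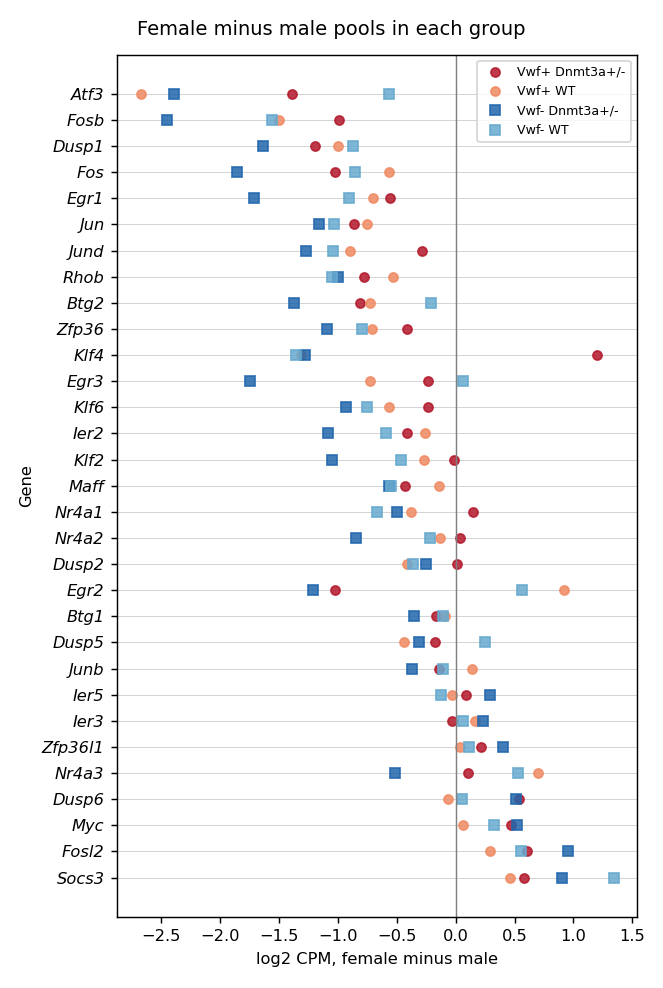
Female minus male log2 CPM of each member (rows, ordered by the fitted change) in the 4 groups. Circles are Vwf+ and squares Vwf- groups. Atf3, Fosb, Dusp1 and Fos are left of 0 in all groups, and Socs3, Fosl2 and Myc are right of 0 in all groups.

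Female pools were lower in all 4 groups for 15 members and higher in all 4 for 4. How many of all genes had either order within groups was not counted, so these 2 numbers have no background. In 7 members all female pools were below all male pools, where 5.91% of all genes were, and 0 members had them all above, where 5.35% of genes did. Of the 16 called members, 14 passed in every fit that left out 1 library. Maff and Myc passed in 2 of 8, with adjusted p of up to 0.16 for Maff (without the male Vwf- WT library) and 0.216 for Myc (without the female Vwf+ Dnmt3a+/- library). The nuclear RNA Malat1 moved with this comparison, at 0.578%, 0.558%, 0.446% and 0.585% of counts in the female libraries of the 4 groups, against 1.31%, 0.974%, 1.97% and 1.00% in the male libraries. Its log2 change was -1.13 ± 0.170 (edgeR adjusted p = 0.000337). The male Vwf- Dnmt3a+/- library had the highest Malat1 share and the highest level of 9 members. The male Vwf+ WT library had the highest level of 7. Its members also had a higher median centred log2 CPM, at 0.482 against 0.176. How many of all genes were highest in each library was not counted. The ribosomal precursor Rn45s took 6.08% to 11.9% of counts, and its change of 0.45 ± 0.166 between sexes was not called (edgeR adjusted p = 0.0885). The 12 heat shock genes summed to 8432 to 8972 CPM in female libraries and 6830 to 8340 CPM in male libraries. Of the cell type markers, 2 of 12 for LT-HSCs (Procr and Fgd5) and 1 of 10 for endothelium (Kdr) were lower in female pools and 2 of 7 stromal markers (Col1a2 and Pdgfrb) were higher. Monocyte and macrophage, neutrophil, B cell, T and NK cell, erythroid and megakaryocyte markers had 0 called, where 10.5% of all genes were called. Summed LT-HSC markers were at 3003 to 3590 CPM in female libraries and 3176 to 3803 CPM in male libraries, endothelial markers at 245 to 382 CPM in female libraries and 225 to 387 CPM in male libraries, and stromal markers at 41.3 to 78.6 CPM in female libraries and 33.0 to 53.9 CPM in male libraries. The part of these in the change of the members was not tested.

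Among the pathway lists, 8 of 20 Myc-responsive growth genes were higher in female pools and 0 lower, with a median log2 change of 0.27. They included Cad (0.64 ± 0.104), an enzyme of pyrimidine synthesis, and Ncl (0.59 ± 0.118), a nucleolar protein, both named after their values were seen. The 20 genes summed to 5316 to 6038 CPM in female libraries and 3843 to 5074 CPM in male libraries. Of 34 upstream kinases and factors 4 were higher and 1 lower, and of 44 other early-response genes 3 were higher and 3 lower. Of all tested genes, 5.62% were called higher in female pools and 4.92% lower. For the bZIP partners and the Myc network the counts were 0 of 15 and 0 of 10. ERK feedback regulators had 1 higher of 16, cytokine feedback genes 2 of 12 and heat shock genes 1 of 12.

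**Figure D4:**
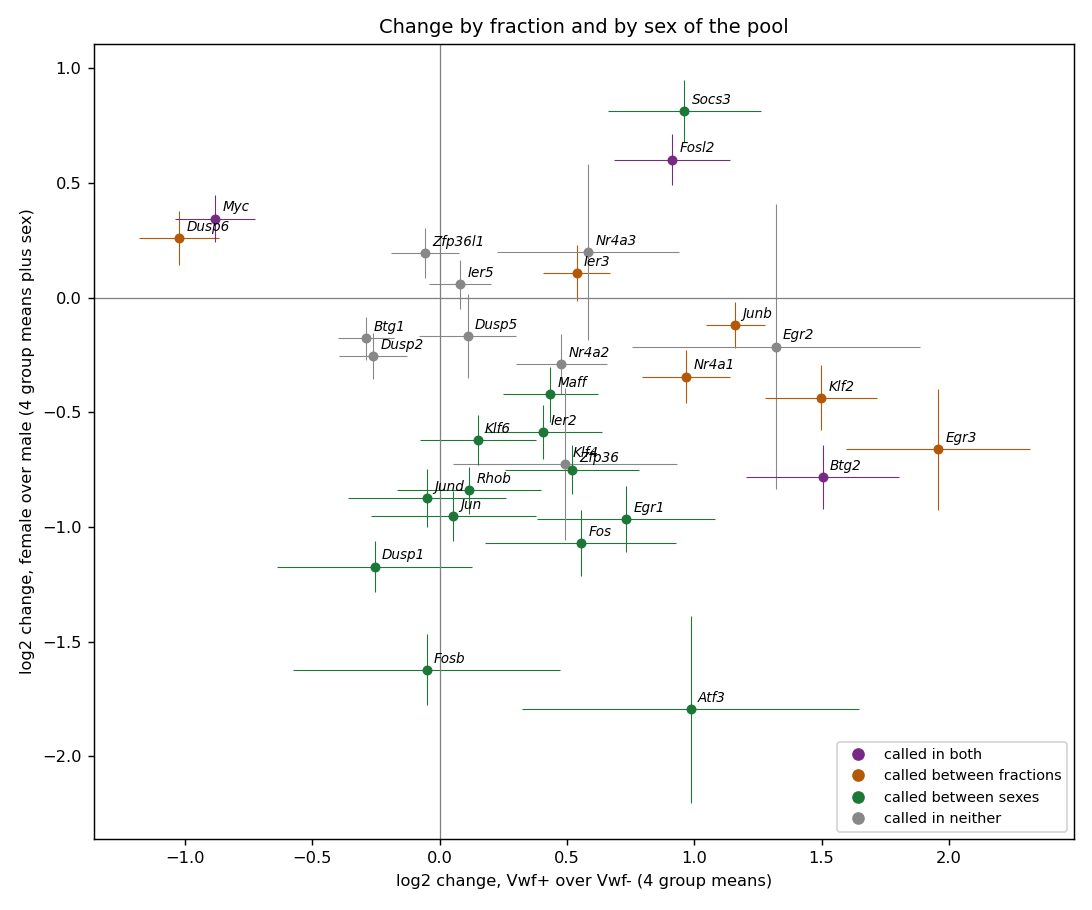
Fitted log2 change of each member between Vwf+ and Vwf- cells (x axis, over Vwf-) and between female and male pools (y axis, over male), with bars of 1 SE. Junb, Klf2, Nr4a1 and Egr3 lie to the right, Myc and Dusp6 to the left, Fosb, Atf3 and Dusp1 at the bottom, and Socs3 and Fosl2 at the upper right.

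Dnmt3a+/- and WT cells did not differ in any member past the threshold. The edgeR test called 0 of 31 members averaged over fraction, 0 in Vwf+ cells and 0 in Vwf- cells, where it called 0% of all genes in each. With the block 0 members were called as well, where 0.188% of all genes were averaged over fraction (0.101% higher and 0.088% lower), 0.0377% in Vwf+ cells (0.0314% higher and 0.00628% lower) and 0.0126% in Vwf- cells (0.00628% higher and 0.00628% lower). By the order of libraries, 0 members had all 4 Dnmt3a+/- libraries above all 4 WT libraries, where 1.24% of all genes did, and 0 had them below, where 0.842% did. At an unadjusted p of 0.05, 1 member passed averaged over fraction, 1 in Vwf+ cells and 2 in Vwf- cells, where 3.24%, 2.28% and 1.33% of all genes did. DESeq2 and limma also called 0 members. The median log2 change of the members averaged over fraction was 0.07, and it was -0.18 without the male Vwf- Dnmt3a+/- library.

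The few members under an unadjusted p of 0.05 in these 3 tests are given here as values only. Nr4a3 was at 3.26 and 3.03 CPM in female and male Vwf+ Dnmt3a+/- cells, against 2.97 and 1.80 CPM in Vwf+ WT cells. In Vwf- cells Nr4a3 was at 2.30 and 3.32 CPM in the female and male Dnmt3a+/- pools, against 1.41 and 0.955 CPM in the WT pools. Dnmt3a+/- was higher in each of the 4 pairs, yet the genotypes overlapped, and the log2 change averaged over fraction was 0.82 ± 0.359 (edgeR adjusted p = 0.998). Nr4a1, whose levels are given above, had 0.36 ± 0.172 averaged over fraction (edgeR adjusted p = 0.998), and with the block 0.38 ± 0.116 (edgeR adjusted p = 0.385). Only 1 member passed in that averaged test, so the averaged changes of Nr4a3 and Nr4a1 cannot both be a pass. In Vwf- cells alone, where 2 members passed, the 3 Nr4a genes had a median log2 change of 0.557. Nr4a2 in Vwf+ cells had a Dnmt3a+/- over WT log2 change of -0.67 ± 0.255 (edgeR adjusted p = 1).

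**Figure D5:**
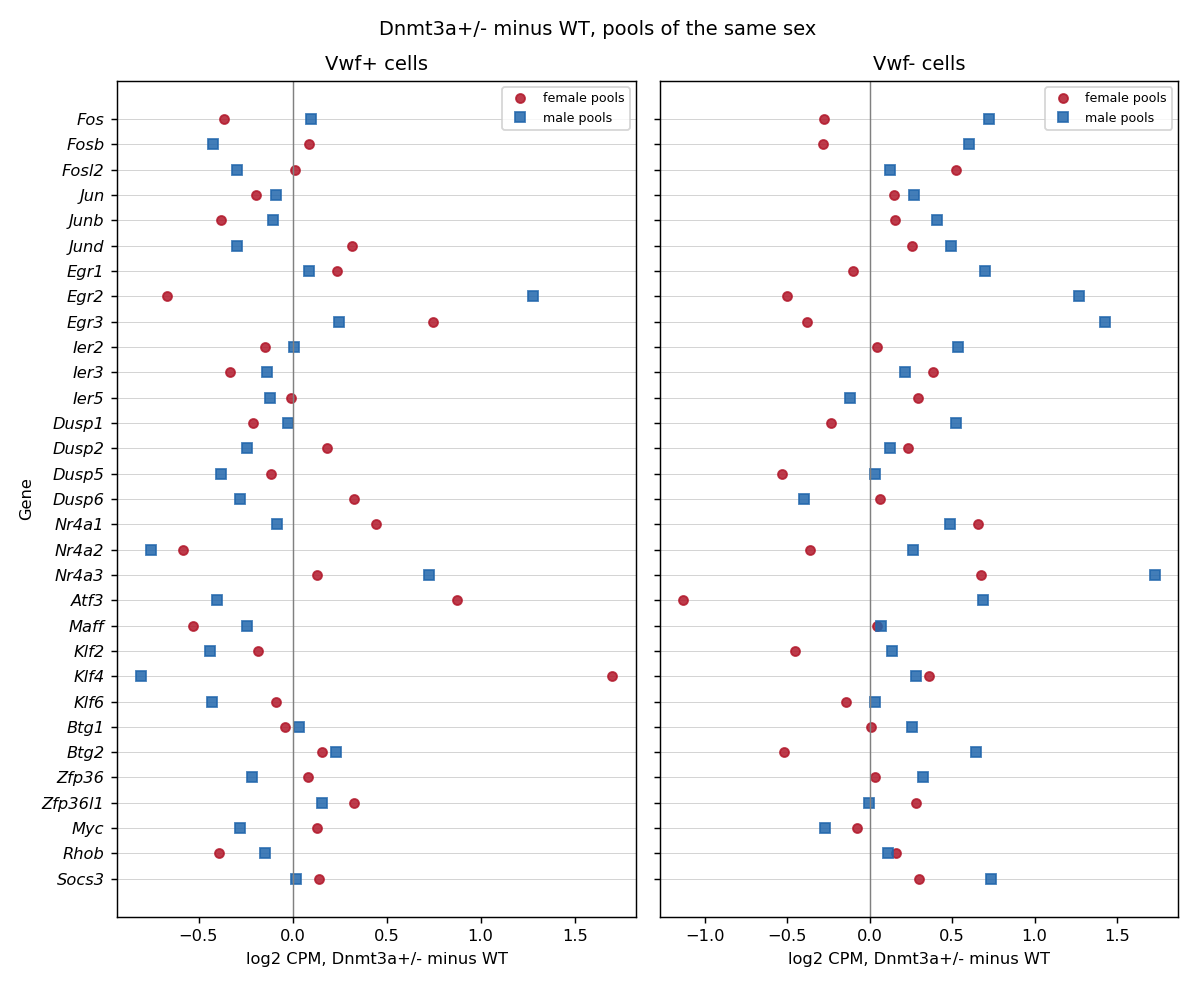
Dnmt3a+/- minus WT log2 CPM of each member (rows) for pools of the same sex, in Vwf+ cells (left) and Vwf- cells (right). Circles are female pools and squares male pools. Jun, Junb, Ier3, Maff and Rhob have both points left of 0 in Vwf+ cells and right of 0 in Vwf- cells, and 0 members were called in either. The share of all genes with this pattern was not counted.

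Of the 31 members, 23 were called between fractions or between sexes in the fits with or without the block, where 20.7% of all tested genes were. The other 8, Btg1, Dusp2, Dusp5, Egr2, Ier5, Klf4, Nr4a3 and Zfp36l1, were called in none. Ier5 was the most even of these, at 31.4 to 38.4 CPM over the 8 libraries. Zfp36l1, a relative of Zfp36, was at 31.2 to 43.1 CPM, and the nuclear phosphatase Dusp5 at 7.70 to 12.8 CPM. Dusp2, also a nuclear phosphatase, was at 50.6 to 80.5 CPM. Egr2 rested on 12 to 57 counts per library, at 0.425 to 2.50 CPM. Klf4, a factor of monocyte and stem cell programmes, was at 14.2, 4.31, 4.02 and 3.12 CPM in the female pools of Vwf+ Dnmt3a+/-, Vwf+ WT, Vwf- Dnmt3a+/- and Vwf- WT cells, against 6.14, 10.8, 9.84 and 8.07 CPM in the male pools. The female Vwf+ Dnmt3a+/- pool was the highest of the 8 and the other 3 female pools were the lowest.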

How the data were processed

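The 31 genes, the pathway lists and the marker lists were chosen with earlier results of these data known. RNA was isolated with a Qiagen AllPrep kit and libraries were made with a Takara Pico Input kit, per the labels. Per the submitters' processing notes the build was mm10, and the tools were STAR, Trim Galore, DESeq2 and featureCounts. The annotation, strand setting and handling of multi-mapped reads are not given in the sources used here. The deposited tables hold raw counts per gene symbol, made by the authors, and TPM values, also by the authors. The counts were tested with edgeR 4.0.16 in R 4.3.3 (filterByExpr with a minimum count of 10, TMM scaling with factors 0.958 to 1.06, quasi-likelihood F-test, 4 group means, 8 libraries, 4 residual degrees of freedom). P-values were adjusted by Benjamini-Hochberg over the 15917 genes tested, with a threshold of 0.05. The fit was tested on simulated counts with changes between Vwf+ and Vwf- libraries only. They held no difference between female and male pools, so that source of spread was not covered. For female against male pools, sex was added, which left 3 degrees of freedom. Errors are standard errors, and levels are CPM. TPM served for levels between genes and for limma. Alternatives were the replicate block, DESeq2 1.42.0, upper-quartile scaling, no filter, limma 3.58.1 on log2(TPM + 1) and log2(TPM + 0.1), the 4 libraries of a contrast alone, and leaving out each library. Every member called in any fit is given by library, and at most 6 called genes of a list are named by p in the averaged comparison of fractions. The replicate numbers were taken as pairing libraries, because libraries of 1 number share their sex in every group and every r below was over 0.1. The female-minus-male differences correlated between groups with r of 0.13, 0.3, 0.16, 0.23, 0.2 and 0.24 across genes, which are not independent replicates. The labels do not say whether both fractions of a pool came from the same mice. These correlations cannot show it, because sex goes with the replicate number in every group. The list of Klf2-responsive genes is not reported here.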

Additional observations from a re-analysis of the deposited data

Results flagged for a closer look

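Some members moved in opposite directions under the same contrast in both of 2 settings, for every pool. The values are differences of mean log2 CPM changes. For Jun, Junb, Ier3, Maff and Rhob, both Dnmt3a+/- minus WT differences were negative in Vwf+ cells and positive in Vwf- cells. The change in Vwf+ cells minus that in Vwf- cells was -0.35 for Jun, -0.53 for Junb, -0.54 for Ier3, -0.44 for Maff and -0.41 for Rhob. The edgeR interaction test called none of the 5, and its smallest unadjusted p was 0.041, for Junb (log2 -0.54 ± 0.229, adjusted p = 1). With 2 pools a side such a pattern needs only 4 signs to line up. How often all tested genes show it was not counted, so nothing particular to the members can be read from it. For Egr2 both female minus male differences were negative in Dnmt3a+/- and positive in WT, and they differed by -1.86, on 12 to 57 counts per library. For Ier5 they were positive in Dnmt3a+/- and negative in WT, and they differed by 0.27. The difference was not tested for Egr2 and Ier5.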

How the results depend on the processing

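Each group has 2 libraries, each library is a pool, and sex and replicate number are 1 split. Counts over all genes stand in parentheses. Between Vwf+ and Vwf- cells averaged over genotype, the 9 called members (866 of all genes) became 16 (2132) with the replicate block, 15 (1649) with no filter on low counts and 2 (247) with limma on log2(TPM + 1) with no filter, and 6 to 13 (472 to 1387) when 1 library was left out (6 without the male Vwf+ WT library). In WT, the 4 (314) became 16 (1329) with the replicate block, 9 (731) with DESeq2, 15 (1059) with no filter, 1 (84) with limma on log2(TPM + 1), 1 (71) on log2(TPM + 0.1), 0 (13) with limma and no filter, 10 (747) with the 4 libraries of the contrast alone and 1 to 10 (64 to 639) with 1 library left out. In Dnmt3a+/-, the 1 (169) became 10 (855) with the replicate block, 6 (494) with DESeq2, 9 (633) with no filter, 0 under each of the 3 limma settings (77, 65 and 12), 0 (42) with its 4 libraries alone and 0 to 6 (75 to 291) with 1 library left out. The limma fits on TPM carried a median change of all genes of -0.13 and -0.14 in WT, against 0.00 in the count fit. Between female and male pools, the 16 (1677) became 10 (365) with limma on log2(TPM + 0.1), 1 (12) with limma and no filter, 15 (1587) when both fractions of a genotype and replicate number were summed (a setting chosen after seeing the data) and 14 to 19 (713 to 2922) with 1 library left out. For Dnmt3a+/- against WT and for the interaction, each setting run called 0 members. For Egr1 in Dnmt3a+/-, leaving out 1 library gave log2 changes of -0.0511 to 1.67. The value turned negative (edgeR adjusted p = 0.986) without the female Vwf- Dnmt3a+/- library, and it was highest without the male one. The cause of these shifts was not tested. For female against male pools no further block could be fitted, because sex is the replicate number.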
